A study of Mus musculus with 8 samples.

Results

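The genes described here are 10 transcripts that mark LYVE1-type perivascular macrophages: Lyve1, Folr2, Cd163, Mrc1, Stab1, Cbr2, Gas6, Ednrb, Slco2b1 and Pf4. They were picked by gene symbol from the 16786 genes that had a value in the 7 complete libraries, of which 12412 were abundant enough to be tested. The 10 genes were chosen with their read counts and FPKM values in TAM-KO against TAM-WT already known, so their difference between genotypes is given as a description, without a test. FPKM scales the fragments of a gene by its transcript length and by the mapped fragments of the library, so levels of different genes can be compared on it.

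The libraries were made from total RNA of tumour-associated macrophages (TAMs), sorted by FACS as CD45+F4/80+ cells from B16 melanomas 14 days after the tumor cells were injected. B16 is a mouse melanoma line of C57BL/6 origin. TAM-WT were from 4 wild-type and TAM-KO from 4 Colec11-/- mice, all on the C57BL/6 strain; the knockout was backcrossed onto that strain and wild-type littermates served as controls, and the mice of the study were in general male and 8 to 10 weeks old. Colec11 encodes collectin-11, a soluble pattern recognition molecule that can start the lectin pathway of complement, and the deletion was carried by every cell of the animal, so a difference between TAM-WT and TAM-KO is not particular to loss of the gene in macrophages. By the study's account each library is a separate mouse, so the p-values measure the spread between mice.

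Macrophages that carry the hyaluronan receptor LYVE1 are resident cells that lie along blood vessels in many tissues. They are known for strong endocytosis of extracellular debris, for low MHC class II, and for an alternatively activated profile of scavenger receptors, and cells of this kind also line vessels in tumors. The 10 genes cover uptake receptors (Lyve1, Stab1, Cd163, Mrc1, Folr2), a peptide hormone receptor and a transporter (Ednrb, Slco2b1), secreted ligands (Gas6, Pf4) and an enzyme (Cbr2).

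The 7 complete libraries held between 16225362 and 17280267 expected counts on genes. The deposited table of TAM-KO1 does not list 5311 genes. The deposited table of the whole series, a list of 3996 genes named as differentially expressed, holds TAM-KO1 values for part of these. For 7 of the 10 genes (Lyve1, Folr2, Mrc1, Cbr2, Gas6, Ednrb and Slco2b1) the TAM-KO1 value was therefore taken from that list. The TAM-KO1 value enters the FPKM means over 4 TAM-KO libraries but not the fitted fold change, which for these 7 genes rests on TAM-KO2, TAM-KO3 and TAM-KO4. Leaving out TAM-KO1 therefore repeats their fold change. The same holds for every other gene that the TAM-KO1 table lacks, also where a mean over 4 TAM-KO libraries is given. Colec11 itself had 1, 4, 0 and 1 counts in TAM-WT and 1 count in each TAM-KO library, so its transcript level does not check the genotype.

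All of the 10 genes had a lower mean FPKM in TAM-KO than in TAM-WT, from a mean left at 12% of the wild-type level for Lyve1 to 75.5% for Stab1. In the fit across all genes (edgeR quasi-likelihood test), their log2 fold changes ran from -3.63 to -0.50 with a median of -1.47, against a median of 0.002 over all genes tested. A gene was called where it differed at least 2-fold with an adjusted p no higher than 0.05. By this rule 7 of the 10 genes were lower and 0 were higher, beside 1.12% of all tested genes called lower and 1.41% called higher. With at least 10 counts required in every library, which leaves out Lyve1, 6 were called lower. The 8 genes other than Folr2 and Stab1 had every TAM-KO value under every TAM-WT value, over all 8 libraries and over the 7 complete ones. Over the 7 complete libraries 7.36% of all tested genes did so, and 0.749% of all tested genes had a log2 fold change at or under the median of the 10. Since this contrast chose the genes, nothing is read from these shares. RNA was taken from sorted cells in bulk, in which fewer LYVE1-type cells and less RNA per cell cannot be told apart. Leaving out TAM-WT3, TAM-KO2 or TAM-KO3 reduced the 7 genes called to 1, while genes called lower over the whole table went from 139 to 32, 18 and 16.

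**Figure D1:**
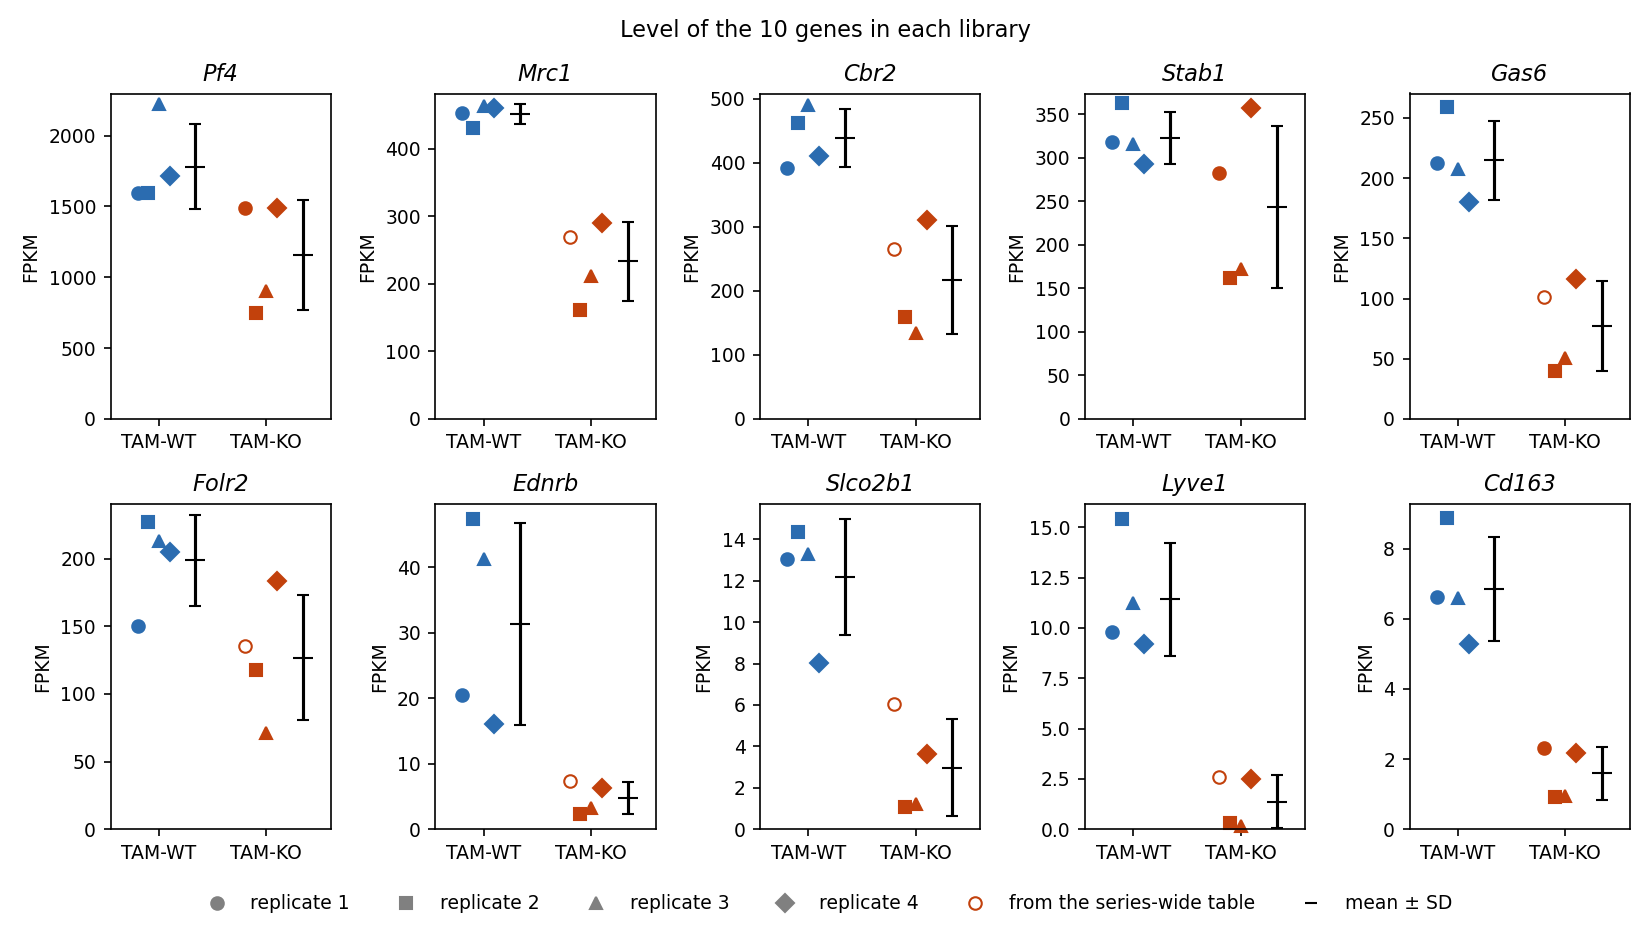
FPKM of each of the 10 genes in every library, 1 panel per gene with its own axis from 0; points are single libraries of TAM-WT (4) and TAM-KO (4), open circles are TAM-KO1 values from the table of the whole series, and bars give the mean with SD. The groups overlap only for Folr2 and Stab1.

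Lyve1 encodes a receptor for hyaluronan, a sugar polymer of the extracellular matrix. It had 9.81, 15.4, 11.25 and 9.20 FPKM in TAM-WT1 to TAM-WT4, and 2.58, 0.29, 0.15 and 2.47 FPKM in TAM-KO1 to TAM-KO4. All TAM-KO libraries were below all TAM-WT libraries, and TAM-KO2 and TAM-KO3 were close to 0. Group means were 11.4 ± 2.79 and 1.37 ± 1.33 FPKM (SD, n = 4 each), and the fitted log2 fold change was -3.63 ± 0.68 (SE). These values rest on 374 to 624 counts per TAM-WT library and on 105, 11, 6 and 99 counts in TAM-KO1 to TAM-KO4. Lyve1 passed the filter on low counts only through its wild-type level, which favoured a fall, so its fitted value is not used as support. Without TAM-KO4 its log2 fold change was -5.82.

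Cd163 encodes the scavenger receptor for hemoglobin-haptoglobin complexes. Its values were 6.63, 8.88, 6.59 and 5.29 FPKM in the TAM-WT libraries and 2.31, 0.92, 0.96 and 2.18 FPKM in the TAM-KO libraries. The highest TAM-KO library was under the lowest TAM-WT library. Means were 6.85 ± 1.49 and 1.59 ± 0.755 FPKM (SD, n = 4 each), with a log2 fold change of -2.24 ± 0.30 (SE), and Cd163 was the only one of the 10 genes called lower in all 8 fits that left out 1 library.

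Mrc1 encodes the mannose receptor CD206, an endocytic lectin widely used as a marker of alternatively activated macrophages. TAM-WT libraries had 453.17, 430.68, 463.68 and 459.56 FPKM, with a coefficient of variation of 3.26%, the smallest of the 10 genes. TAM-KO libraries had 269.65, 161.51, 211.63 and 289.47 FPKM. The groups stood far apart, at 452 ± 14.7 and 233 ± 58.0 FPKM (SD, n = 4 each), with a log2 fold change of -1.13 ± 0.20 (SE).

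Stab1 encodes stabilin-1, a scavenger receptor that clears modified lipoproteins and matrix fragments, and it was the gene with the smallest difference. It had 318.63, 363.34, 316.0 and 293.04 FPKM in TAM-WT and 282.81, 162.52, 172.48 and 357.17 FPKM in TAM-KO. TAM-KO4 was above 3 of the 4 TAM-WT libraries, TAM-KO1 was just under them, and TAM-KO2 and TAM-KO3 were well under them. Means were 323 ± 29.4 and 244 ± 93.2 FPKM (SD, n = 4 each), and the log2 fold change of -0.50 ± 0.24 (SE) did not pass the call rule in any of the 8 fits without 1 library.

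Folr2 encodes folate receptor beta, which takes up folate and is a surface marker of tissue-resident macrophages. Its FPKM values were 150.31, 227.19, 213.02 and 205.26 in TAM-WT and 135.37, 117.5, 71.45 and 183.45 in TAM-KO. TAM-KO4 exceeded TAM-WT1, so the groups overlapped, although the other 3 TAM-KO libraries were under all of TAM-WT. The means were 199 ± 33.7 and 127 ± 46.3 FPKM (SD, n = 4 each), and the log2 fold change of -0.77 ± 0.31 (SE) was not called.

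Ednrb encodes the endothelin receptor type B, a G protein-coupled receptor that is also a gene of the melanocyte lineage. It was the most variable gene among wild-type libraries, at 20.47, 47.41, 41.28 and 16.03 FPKM. In TAM-KO it had 7.38, 2.27, 3.22 and 6.30 FPKM. The lowest TAM-WT library was still above the highest TAM-KO library. Means were 31.3 ± 15.4 and 4.79 ± 2.44 FPKM (SD, n = 4 each), with a log2 fold change of -3.10 ± 0.51 (SE).

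Slco2b1 encodes an organic anion transporter with steroid conjugates among its substrates. TAM-WT libraries had 13.04, 14.35, 13.3 and 8.05 FPKM and TAM-KO libraries 6.03, 1.05, 1.21 and 3.62 FPKM. The narrowest gap lay between TAM-WT4 and TAM-KO1, and the groups did not overlap. Means were 12.2 ± 2.81 and 2.98 ± 2.35 FPKM (SD, n = 4 each), and the log2 fold change was -2.68 ± 0.43 (SE), or -3.48 without TAM-KO4.

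Gas6 encodes the bridging ligand that ties phosphatidylserine on dying cells to the kinases AXL, MERTK and TYRO3. Its level was 212.9, 259.3, 207.3 and 180.29 FPKM in TAM-WT and 101.37, 39.97, 50.67 and 116.52 FPKM in TAM-KO. Every TAM-KO value was below every TAM-WT value, and TAM-KO2 and TAM-KO3 were the lowest. Means were 215 ± 32.8 and 77.1 ± 37.5 FPKM (SD, n = 4 each), with a log2 fold change of -1.72 ± 0.36 (SE), or -2.37 without TAM-KO4.

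Pf4 encodes the chemokine CXCL4, made by platelets and their precursors as well as by macrophages, and it was by far the most abundant of the 10 transcripts, with 51.3% of their summed wild-type FPKM. It had 1591.92, 1596.05, 2223.61 and 1715.31 FPKM in TAM-WT and 1488.54, 749.19, 905.72 and 1488.07 FPKM in TAM-KO. TAM-KO1 and TAM-KO4 lay just under the lowest wild-type value. Means were 1782 ± 300.1 and 1158 ± 387 FPKM (SD, n = 4 each), and the log2 fold change of -0.71 ± 0.24 (SE) was not called.

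Cbr2 encodes a carbonyl reductase, an enzyme that reduces reactive carbonyl compounds and that is used as a marker of resident macrophages. Its FPKM values were 392.54, 462.12, 490.38 and 409.91 in TAM-WT and 264.9, 158.74, 133.45 and 310.6 in TAM-KO. All 4 TAM-KO libraries were under the wild-type range. The means were 439 ± 45.4 and 217 ± 84.5 FPKM (SD, n = 4 each), with a log2 fold change of -1.21 ± 0.29 (SE), which was called in 2 of the 8 fits without 1 library.

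By mean FPKM in TAM-WT the 10 transcripts ran in the order Pf4, Mrc1, Cbr2, Stab1, Gas6, Folr2, Ednrb, Slco2b1, Lyve1 and Cd163. The neighbours Mrc1 and Cbr2, Gas6 and Folr2, and Slco2b1 and Lyve1 differed by less than their SD. In TAM-KO the order was Pf4, Stab1, Mrc1, Cbr2, Folr2, Gas6, Ednrb, Slco2b1, Cd163 and Lyve1. In it Stab1, Mrc1 and Cbr2 lay within 1 SD of each other, as did Ednrb and Slco2b1, and also Cd163 and Lyve1. The 4 least abundant transcripts (Ednrb, Slco2b1, Lyve1 and Cd163) had the larger log2 differences, between -3.63 and -2.24, and the 6 more abundant ones lay between -1.72 and -0.50. The summed FPKM of the 10 genes was 3169 to 3986 in TAM-WT and 1394 to 2759.8 in TAM-KO, and without Pf4 1578 to 1829 and 645 to 1272.

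The TAM-KO libraries divided in the same way for each of the 10 genes. TAM-KO1 and TAM-KO4 were above TAM-KO2 and TAM-KO3 for 10 of 10 genes, as they were for 1313 of the 9396 tested genes that all 8 libraries list (14.0%). Among the 3 complete TAM-KO libraries, TAM-KO4 was the highest for 10 of 10 genes, beside 24.8% of all tested genes and 107 of the 139 genes called lower. The lowest of the 3 was TAM-KO2 for 7 genes and TAM-KO3 for 3. On the log2 scale against the wild-type mean, TAM-KO2 and TAM-KO3 lay at -5.30 and -6.25 for Lyve1, while TAM-KO4 lay at 0.15 for Stab1. In TAM-WT the order was looser, with TAM-WT2 the highest for 7 genes and TAM-WT3 for 3, and TAM-WT4 the lowest for 6. The libraries of a genotype come from different mice, and no label sets TAM-KO1 and TAM-KO4 apart.

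**Figure D2:**
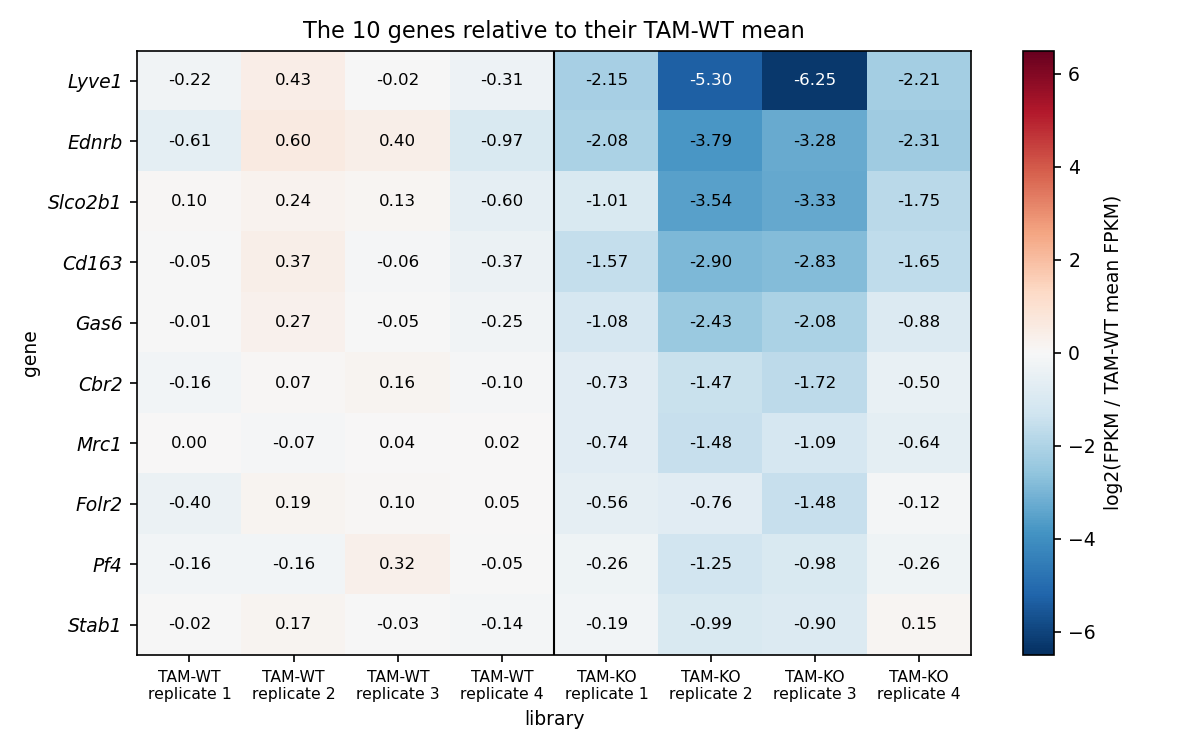
Heat map of log2 of FPKM over the TAM-WT mean FPKM of the gene, with the 10 genes as rows, the 8 libraries as columns and the value printed in each cell; blue is below the mean and red above. TAM-KO2 and TAM-KO3 are lower than TAM-KO1 and TAM-KO4 for each gene.

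Other genes of perivascular-type and resident macrophages mostly had negative log2 fold changes as well. Of 33 such genes outside the 10, 27 could be tested (edgeR quasi-likelihood test, Benjamini-Hochberg adjustment over all genes). Among these, 8 passed the call rule as lower and 1 as higher, beside 1.12% and 1.41% of all tested genes, and 18 did not pass. The 8 include Vsig4 and Retnla, which had few counts in TAM-KO, and with at least 10 counts required in every library 6 were called lower. The median log2 fold change of the 27 was -0.70, within a range of -3.23 to 1.42. It was negative for 24 of the 27, beside 6162 of the 12412 genes tested. In the 7 complete libraries 14 of the 27 (51.9%) had every TAM-KO value under every TAM-WT value, beside 7.36% of all tested genes. The list was written with earlier results of these data known, so it is not independent of them. TAM-KO4 was the highest of the 3 complete TAM-KO libraries for 19 of these 27 genes.

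Vsig4, the complement receptor CRIg of resident macrophages, had 28, 35, 29 and 18 counts in TAM-WT1 to TAM-WT4 and 3, 0, 3 and 6 counts in TAM-KO1 to TAM-KO4 (1.37 ± 0.351 and 0.150 ± 0.122 FPKM, SD, n = 4 each). It passed the filter on low counts only through its wild-type level, so it had to differ, and its fitted value is not used as support. Among other lectins and pattern receptors, Fcna (ficolin-A, which starts the lectin pathway of complement) fell from 12.2 ± 5.49 to 4.04 ± 1.81 FPKM and Colec12 (a membrane-bound collectin with scavenger function) from 3.82 ± 0.643 to 1.35 ± 0.401 FPKM. The log2 fold changes of this pair were -1.98 ± 0.39 and -1.58 ± 0.26 (SE), with adjusted p = 0.0274 and 0.0184 (edgeR). The galactose-type lectins Clec10a and Mgl2 fell with log2 fold changes of -1.08 ± 0.18 and -1.51 ± 0.31 (SE, edgeR adjusted p = 0.0194 and 0.0253). Vsig4 and these 4 genes had every TAM-KO value under every TAM-WT value.

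F13a1, the coagulation factor XIII A chain, was the most abundant of the called genes, and fell from 391 ± 96.3 to 152 ± 38.2 FPKM (n = 4 each, SD). Its log2 fold change was -1.48 ± 0.24 (SE, edgeR adjusted p = 0.0139). Fcrls, an Fc receptor-like scavenger protein, had 133.14, 123.35, 142.93 and 137.52 FPKM in TAM-WT and 64.31, 22.90, 23.63 and 72.41 FPKM in TAM-KO, with TAM-KO1 and TAM-KO4 again above TAM-KO2 and TAM-KO3 (log2 fold change -1.64 ± 0.36 SE, edgeR adjusted p = 0.0295). Retnla, a secreted product of alternatively activated macrophages, was called lower with a log2 fold change of -1.40 ± 0.37 (SE, edgeR adjusted p = 0.0452) at 24, 17, 28 and 11 counts in TAM-WT and 9, 11, 6 and 6 counts in TAM-KO, and its groups overlapped. Like Vsig4, it passed the filter on low counts only through its wild-type level, so its fitted value is not used as support. C4b, complement component 4, was the 1 gene called higher, from 11.6 ± 5.25 to 29.3 ± 9.11 FPKM (SD, n = 4 each). Its groups overlapped, with TAM-WT1 at 19.43 FPKM above TAM-KO1 at 17.26 FPKM. Its log2 fold change was 1.42 ± 0.27 (SE, edgeR adjusted p = 0.0244), in a fit without TAM-KO1, as for Fcna, Clec10a and Colec12. Leaving out TAM-WT3, TAM-KO2 or TAM-KO3 reduced the 8 lower calls to 3, 2 and 0, and C4b was not called without any one of these 3 libraries or without TAM-WT4. F13a1 was called in 7 of 8 such fits, Clec10a, Mgl2, Colec12 and Fcna in 5, Fcrls and C4b in 4 and Retnla in 2.

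The most abundant genes of this list differed from each other. Selenop, the selenium transport protein, went from 800.1 ± 84.0 to 479 ± 59.3 FPKM (SD, n = 4 each). Its log2 fold change of -0.84 ± 0.12 (SE) passed the adjusted p (0.0101, edgeR quasi-likelihood test) but not the fold minimum. The chemokine gene Ccl8 had 749 ± 208 and 793 ± 204 FPKM, a log2 fold change of 0.02 ± 0.22 (SE, edgeR adjusted p = 0.970). With the adjusted p alone, 13 of the 27 genes were lower and 1 higher, beside 5.24% and 4.58% of all tested genes. Maf, a transcription factor known to act in resident macrophages, had a log2 fold change of -0.20 ± 0.10 (SE, edgeR adjusted p = 0.238) in TAM-WT and the 3 complete TAM-KO libraries, and was singled out after its value was seen.

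**Figure D3:**
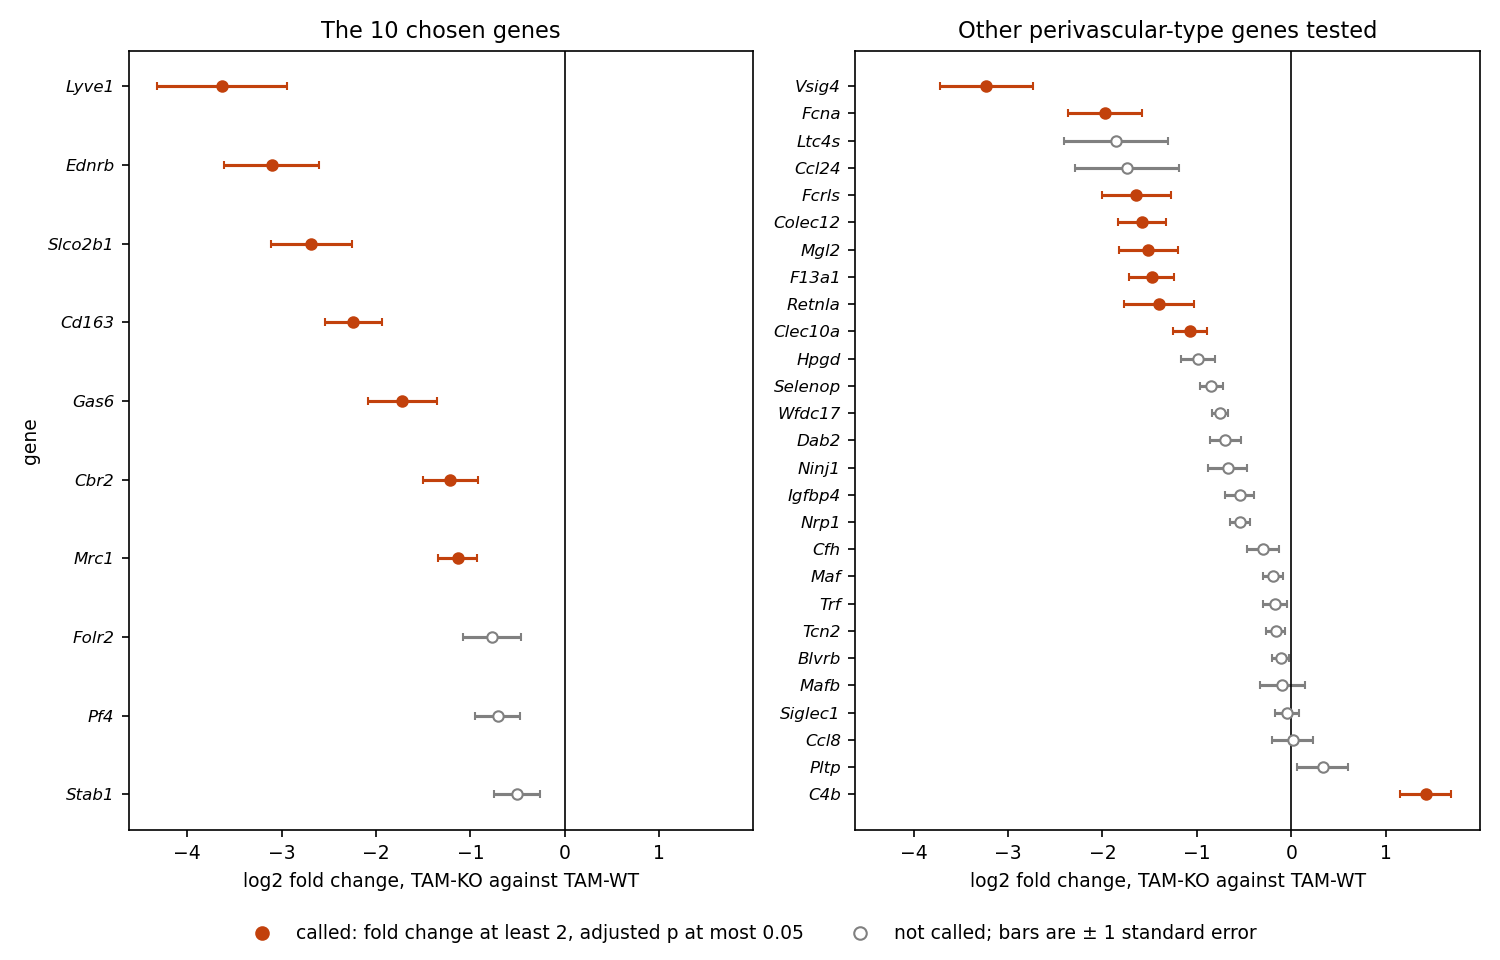
Log2 fold change of TAM-KO against TAM-WT, with SE, for the 10 genes (left) and the 27 other perivascular-type genes tested (right), from the edgeR fit across all genes; filled points were called and open points were not. Values of the 10 genes lie left of 0, from -3.63 to -0.50.

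Genes that share a ligand, substrate or cargo with the 10 did not pass the call rule. Of 24 such genes, 18 were tested with edgeR's quasi-likelihood test, and 0 were lower and 0 higher. At an unadjusted p under 0.05, 6 were lower and 2 higher. Over all tested genes, 5.24% were lower and 4.58% higher at the stricter adjusted p alone. The shares at an unadjusted p under 0.05 are larger than these, here and for the lists below. DESeq2 and limma on log2(FPKM + 1) also called 0, and limma on log2(FPKM + 0.1) called 1 higher, Hp (haptoglobin, the partner ligand of Cd163). The median log2 fold change was -0.13, from -1.07 to 0.91. The list was written by function, with earlier results of these data known.

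The most abundant partner was Hmox1, heme oxygenase-1, which breaks down the heme that CD163 brings in. It had means of 5101 ± 1086 and 3923 ± 972 FPKM (SD, 4 TAM-WT and 3 TAM-KO libraries), with a log2 fold change of -0.48 ± 0.24 (SE, edgeR adjusted p = 0.216). Cd44, another hyaluronan receptor, had 151 ± 10.8 and 192 ± 16.7 FPKM (n = 4 and 3) and a log2 fold change of 0.24 ± 0.09 (SE, edgeR adjusted p = 0.111). Of the GAS6 receptors, chosen for naming after their values were seen, Mertk had a log2 fold change of -0.34 ± 0.10 and Axl of 0.57 ± 0.27 (SE, edgeR adjusted p = 0.0557 and 0.178), so neither passed. Without the fold minimum 2 partners were lower, Stab2 (the second stabilin, adjusted p = 0.0482 by edgeR) at 0.390 ± 0.0688 FPKM in TAM-WT and Slc46a1 (a folate and heme transporter, adjusted p = 0.0460 by edgeR), and Stab2 passed the full rule without TAM-KO4. Edn2 and Edn3, ligands of EDNRB, were listed at 0 in all 7 complete libraries, and Edn1 had 0.593 ± 0.204 FPKM in TAM-WT.

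MHC class II and related genes, which are high in the macrophages that stand opposite to LYVE1-type cells, were not called. Of 10 genes tested with edgeR, 0 were lower and 0 higher, with 1 higher and 0 lower at an unadjusted p under 0.05. Without TAM-WT1, Cx3cr1 was called higher. DESeq2 and both limma fits also called 0. Of the 10 log2 fold changes 9 were positive, with a median of 0.62 and a range of -0.04 to 0.89. The most abundant, Cd74 (the invariant chain), had 2058.61, 641.28, 1020.02 and 1554.06 FPKM in TAM-WT and 1773.72, 2271.7, 2332.26 and 1955.12 FPKM in TAM-KO. TAM-WT1 lay among the TAM-KO libraries and TAM-WT2 far below them, and the log2 fold change was 0.63 ± 0.33 (SE, edgeR adjusted p = 0.238). H2-Aa, an MHC class II chain, had a log2 fold change of 0.64 ± 0.37 (SE, edgeR adjusted p = 0.275). The 10 genes of the MHC class II list summed to 1288 to 4158 FPKM in TAM-WT and 3658 to 4724 FPKM in TAM-KO2 to TAM-KO4.

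General macrophage genes checked the sort. Of 11 such genes, 0 passed the call rule of the edgeR fit in either direction (at an unadjusted p under 0.05, 2 were lower and 1 higher, and DESeq2 and both limma fits called 0), and their median log2 fold change was -0.18. They summed to 15678 to 18129.8 FPKM in TAM-WT and 12998 to 15739 FPKM in TAM-KO2 to TAM-KO4. Lyz2, lysozyme, was the highest at 7637 ± 1006 and 5405 ± 1174 FPKM (SD, n = 4 each), and its groups overlapped. Its log2 fold change of -0.70 ± 0.19 (SE, edgeR adjusted p = 0.0548) came from a fit without TAM-KO1. C1qa, a subunit of complement C1q, had 1795 ± 219.6 FPKM in TAM-WT (n = 4) and 2100.2 ± 54.3 FPKM in TAM-KO (n = 3), with a log2 fold change of 0.13 ± 0.11 (SE, edgeR adjusted p = 0.447).

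Markers of other cells moved between the genotypes as well, and their part in the difference of the 10 genes was not tested. For scale, edgeR called 1.12% of all tested genes lower and 1.41% higher. Of 6 monocyte genes, 3 rose and 0 fell by edgeR, DESeq2 and both limma fits, among them Ly6c2 and Plac8, with log2 fold changes of 1.79 ± 0.44 and 1.41 ± 0.21 (SE, edgeR adjusted p = 0.0440 and 0.0123). Ccr2, also in that list and in the MHC class II list, had a log2 fold change of -0.04 ± 0.23 (SE, edgeR adjusted p = 0.917). The monocyte genes summed to 96.5 to 227 FPKM in TAM-WT and 304 to 451 FPKM in TAM-KO2 to TAM-KO4, with the lowest TAM-KO sum in TAM-KO4. Of 6 tested T cell and NK cell genes of 8, Nkg7 was called higher (3.38 ± 0.78 on the log2 scale, SE, edgeR adjusted p = 0.0323). It had 54, 1, 2 and 2 counts in TAM-WT1 to TAM-WT4 and 140, 252, 166 and 94 in TAM-KO1 to TAM-KO4. Nkg7 passed the filter on low counts only through TAM-KO, which favoured a rise, so its fitted value is not used as support. At an unadjusted p under 0.05, 5 of the 6 were higher, and DESeq2 called 2 higher and both limma fits 4. Cd3e, Cd3d, Cd8a and Gzmb also passed the filter only through TAM-KO, so these counts are not used as support either. The list summed to 2.14 to 21.0 FPKM in TAM-WT and 23.1 to 71.1 FPKM in TAM-KO2 to TAM-KO4. Of 3 tested neutrophil genes of 5, S100a8 was called higher (2.68 ± 0.73, SE, edgeR adjusted p = 0.0481). It had 12, 6, 9 and 9 counts in TAM-WT and 169, 24, 21 and 37 in TAM-KO. S100a8 too passed the filter only through TAM-KO, so its fitted value is not used as support. The neutrophil genes summed to 21.2 to 32.1 FPKM in TAM-WT, 48.5 to 54.9 FPKM in TAM-KO2 to TAM-KO4 and 193 FPKM in TAM-KO1. DESeq2 called 2 neutrophil genes higher and each limma fit 1, and Csf3r had a log2 fold change of 0.58 ± 0.18 (SE, edgeR adjusted p = 0.0737). Of 7 dendritic cell genes, Xcr1 was called higher (1.78 ± 0.46, SE, edgeR adjusted p = 0.0435) and 0 were called lower by edgeR, while DESeq2 called 1 higher and 1 lower (Cd209a), limma on log2(FPKM + 1) called 0 and limma on log2(FPKM + 0.1) called 1 higher. Xcr1 had 24, 7, 4 and 16 counts in TAM-WT and 38, 63, 59 and 26 in TAM-KO. It passed the filter only through TAM-KO, so its fitted value is not used as support. The list summed to 7.57 to 17.8 FPKM in TAM-WT and 9.89 to 11.8 FPKM in TAM-KO2 to TAM-KO4. The most abundant dendritic cell genes, Ccr7 and Cd209a, had log2 fold changes of -0.36 ± 0.33 and -1.01 ± 0.30 (SE), and Gzmb of cytotoxic lymphocytes had 3.11 ± 0.97 (SE, edgeR adjusted p = 0.505, 0.0650 and 0.0744). When 1 library was left out, Plac8 was called in 8 of 8 fits, and Nkg7 and Xcr1 in 3, Ly6c2 in 2 and S100a8 in 1.

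Melanocyte genes stand for RNA of the B16 tumor cells, and they bear on Ednrb, which those cells can express. All 8 were tested and 0 were called by edgeR, DESeq2 or either limma fit, with 7 higher at an unadjusted p under 0.05, a median log2 fold change of 0.67 and Sox10 past the adjusted p alone (0.0295, edgeR). The list summed to 1960.3 to 4416 FPKM in TAM-WT and 3825 to 5106 FPKM in TAM-KO2 to TAM-KO4, led by Pmel at 795 ± 366 and 1272 ± 169.8 FPKM (SD, n = 4 each), with Dct next (log2 fold change 0.49 ± 0.22 SE, edgeR adjusted p = 0.165). The sums overlapped, with TAM-WT2 above TAM-KO4. They were 2650.5, 4416.4, 2011.9 and 1960.3 FPKM in TAM-WT1 to TAM-WT4, where Ednrb had 20.47, 47.41, 41.28 and 16.03 FPKM. In TAM-KO2 to TAM-KO4 they were 5105.7, 4776.8 and 3825.2 FPKM, where Ednrb had 2.27, 3.22 and 6.30 FPKM. The part of tumor cell RNA in the Ednrb difference was not tested. Lyve1, Stab1 and Mrc1 are also genes of lymphatic endothelium, for which Prox1 had 0.355 ± 0.150 and 0.615 ± 0.0926 FPKM and Flt4 0.210 ± 0.104 and 0.398 ± 0.101 FPKM (SD, n = 4 each); the 3 genes with a value summed to 0.280 to 0.770 FPKM in TAM-WT and 0.920 to 1.29 FPKM in TAM-KO2 to TAM-KO4, and of 2 tested 0 were called by any tool, with 2 higher at an unadjusted p under 0.05. Blood endothelial genes summed to 9.04 to 13.2 and 11.7 to 17.0 FPKM, with 0 of 6 tested genes of 10 called by edgeR (1 higher and 0 lower at an unadjusted p under 0.05, and 1 higher by DESeq2). Egfl7 and Pecam1, the most abundant of them, had log2 fold changes of 0.04 ± 0.29 and 1.06 ± 0.39 (SE, edgeR adjusted p = 0.944 and 0.0990). Fibroblast and pericyte genes summed to 4.16 to 9.55 and 5.12 to 7.43 FPKM, with 0 of 7 tested genes of 10 called by any tool and 1 higher at an unadjusted p under 0.05. Acta2 and Col1a1 led this list, with log2 fold changes of -0.46 ± 0.27 and 0.11 ± 0.46 (SE, edgeR adjusted p = 0.286 and 0.898).

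Platelet genes bear on Pf4, and only 3 of 10 could be tested, of which 0 were called by edgeR (1 lower and 1 higher at an unadjusted p under 0.05, and 1 lower, Ppbp, by DESeq2). The list summed to 28.1 to 147 FPKM in TAM-WT and 10.5 to 20.2 FPKM in TAM-KO2 to TAM-KO4, and to 33.8 FPKM in TAM-KO1 over the 8 genes it holds. Nearly all of it was Ppbp, whose groups overlapped (31.31 FPKM in TAM-KO1), at 64.9 ± 56.3 and 16.0 ± 11.2 FPKM (SD, n = 4 each, log2 fold change -2.15 ± 0.66 SE, edgeR adjusted p = 0.0645). The platelet receptor genes Itga2b and Gp9 had 0.220 ± 0.0432 and 0.378 ± 0.130 FPKM in TAM-WT and 0.407 ± 0.0737 and 0.745 ± 0.324 FPKM in TAM-KO (SD, n = 4 each). The part of platelet RNA in the Pf4 difference was not tested.

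**Figure D4:**
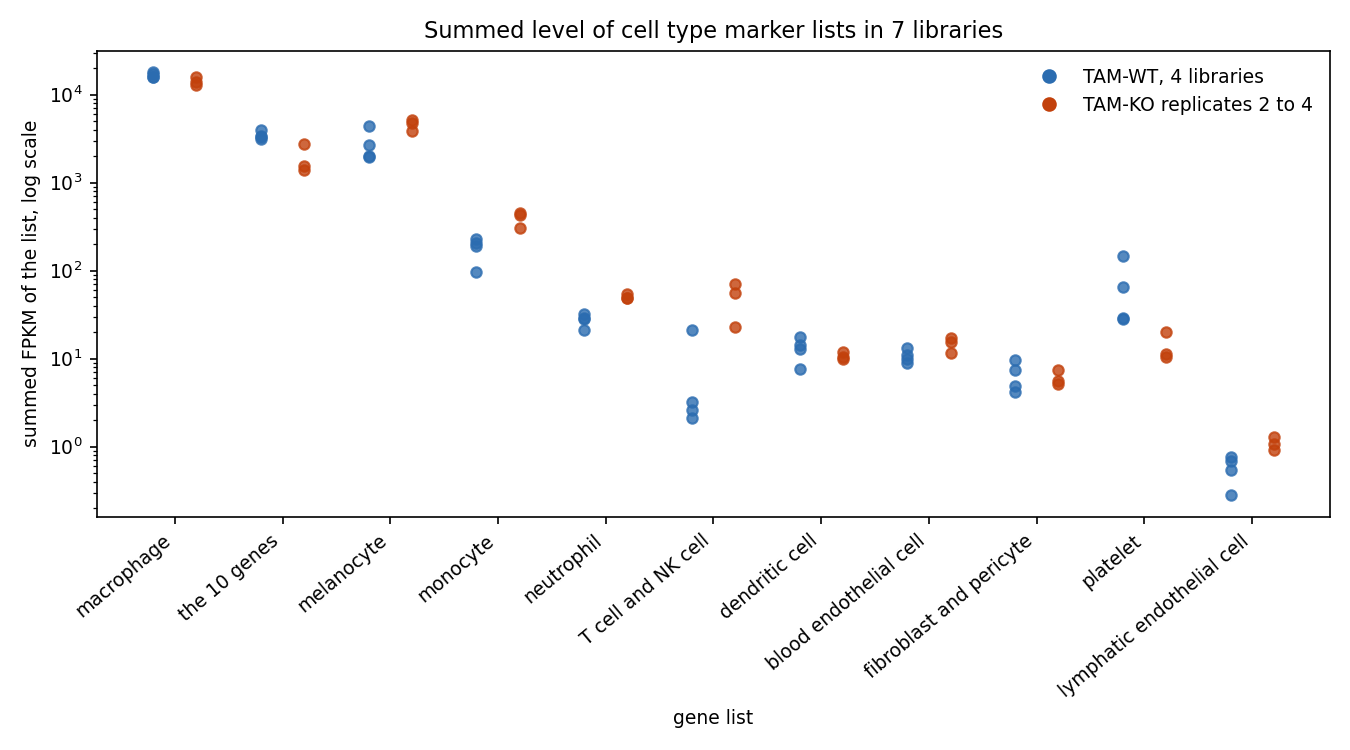
Summed FPKM of the 10 genes and of each marker list in TAM-WT (4 libraries) and the complete TAM-KO libraries (3), on a log10 axis, 1 point per library. The general macrophage list is the highest, between 12998 and 18129.8 FPKM, and the lymphatic endothelial list the lowest, between 0.280 and 1.29 FPKM.

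Outside the 10 genes, those whose log2 CPM profile over the 7 complete libraries lay nearest to the median profile of the 10 were Igf1, Reps2, Colec12, Pmp22 and Gpr183, by the mean absolute difference after centring each gene (10363 candidate genes). Igf1, a growth factor made by resident macrophages, was the nearest at 0.097, followed by Reps2, which takes part in receptor endocytosis, at 0.111. Igf1 had 45.69, 49.07, 55.99 and 42.4 FPKM in TAM-WT and 28.91, 13.69, 13.9 and 29.43 FPKM in TAM-KO. Like the 10 genes, it was higher in TAM-KO1 and TAM-KO4 than in TAM-KO2 and TAM-KO3. Pmp22, a membrane protein, was the most abundant of the 5, at 276 ± 29.3 and 113 ± 37.8 FPKM, and Gpr183, the oxysterol receptor EBI2, had 15.9 ± 0.843 and 6.57 ± 1.95 FPKM (SD, n = 4 each). Of the 10 genes, Gas6 (0.122) and Cbr2 (0.171) lay nearest to the median profile and Lyve1 (1.356) farthest. These genes were picked by likeness over the same libraries, so the likeness is a description.

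In the deposited annotation, 7 of the 10 genes carried the term membrane (38.1% of all tested genes) and 6 the term plasma membrane (20.8%). Endocytosis was given for Cd163, Mrc1 and Stab1 (1.58% of tested genes). The genes lie on 7 mouse chromosomes in the RefSeq annotation of GRCm38.p6, with Lyve1, Folr2 and Slco2b1 on chromosome 7 and Stab1 and Ednrb on chromosome 14. Lyve1 spans chr7:110850607-110862953, Mrc1 spans chr2:14229414-14332023 and Pf4 spans chr5:90772435-90773383.

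RefSeq promoter windows of GRCm38.p6, from 250 bases before to 50 bases after a transcript start, were matched by NCBI gene ID for 9 of the 10 genes (all but Lyve1), 12 windows in all. They are shown because the genes moved together, and were searched on both strands for the letters of 4 motifs of factors known in macrophages: a MAF site (TGCTGAC), an AP-1 site (TGANTCA), a PU.1 core (AGAGGAAG) and an E-box of MiT/TFE factors (GTCACGTG). A match was in 4 of the 12 windows (33.3%), beside 5917 of 32851 promoters (18.0%). These shares hold few windows and support no comparison. By motif, 4.67%, 7.81%, 4.55% and 2.25% of all promoters hold a match, in the order given. The 4 windows with a match follow, 5′ to 3′ on the strand of the gene, with the match in capitals.
Mrc1, chr2:14229164-14229463, plus strand: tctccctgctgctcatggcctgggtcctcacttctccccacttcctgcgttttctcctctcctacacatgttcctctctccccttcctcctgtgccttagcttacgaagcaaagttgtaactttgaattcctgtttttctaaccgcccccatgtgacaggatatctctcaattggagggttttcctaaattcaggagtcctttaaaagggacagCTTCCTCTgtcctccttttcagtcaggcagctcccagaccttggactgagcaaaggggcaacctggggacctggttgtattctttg
Cbr2, chr11:120731972-120732271, minus strand: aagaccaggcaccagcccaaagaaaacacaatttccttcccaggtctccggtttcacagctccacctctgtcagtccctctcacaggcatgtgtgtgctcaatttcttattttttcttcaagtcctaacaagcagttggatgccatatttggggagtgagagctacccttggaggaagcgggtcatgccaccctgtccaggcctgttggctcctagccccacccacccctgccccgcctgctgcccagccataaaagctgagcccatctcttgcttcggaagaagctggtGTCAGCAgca
Folr2, chr7:101845282-101845581, minus strand: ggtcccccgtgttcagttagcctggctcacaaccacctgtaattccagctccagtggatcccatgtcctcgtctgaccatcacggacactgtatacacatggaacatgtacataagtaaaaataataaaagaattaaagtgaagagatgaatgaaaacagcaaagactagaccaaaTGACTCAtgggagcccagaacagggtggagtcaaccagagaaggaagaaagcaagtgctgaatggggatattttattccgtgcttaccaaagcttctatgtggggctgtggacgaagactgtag
Slco2b1, chr7:99711291-99711590, minus strand: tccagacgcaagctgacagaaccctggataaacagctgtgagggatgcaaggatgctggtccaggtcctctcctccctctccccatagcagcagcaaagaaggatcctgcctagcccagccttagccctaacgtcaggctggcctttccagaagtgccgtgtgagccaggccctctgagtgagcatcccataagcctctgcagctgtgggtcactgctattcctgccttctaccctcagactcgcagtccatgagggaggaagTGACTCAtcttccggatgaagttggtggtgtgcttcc
The Mrc1 window holds the PU.1 core from base 215, on the opposite strand, and the Cbr2 window the MAF site from base 291, also on the opposite strand. The Folr2 and Slco2b1 windows hold an AP-1 site, from bases 177 and 264. Folr2 has 2 annotated windows and Slco2b1 has 3, of which the others had no match. A match to these letters is a description of the sequence and not a bound site, and these data measured no binding.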

How the data were processed

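RNA of sorted CD45+F4/80+ TAMs was sequenced on the BGISEQ-500 platform. The study's methods give Bowtie2 for alignment and RSEM for quantification, and the submitters' processing notes list HISAT2 2.0.4, Bowtie2 2.2.5, RSEM 1.2.12 and the build GRCm38.p6. The expected counts (not normalized) and the FPKM values (per gene length and mapped reads) were deposited by the authors in 1 table per library. The authors' deposited table of the whole series holds 3996 genes and is named as a list of differentially expressed genes. No TAM-KO1 value was found in either table for 3026 genes. The columns of the authors' own comparison in that list (log2 ratios, p-values and q-values) were not used, and only its FPKM and counts of TAM-KO1 were read, for 1188 genes that the TAM-KO1 table lacks. Where both tables list a gene (2808 genes), the values were equal within 0.011. In the TAM-KO1 table, 629 values on genes with no value in the other libraries were not used.

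Samples were grouped by the genotype in the labels. Expected counts were rounded and tested with edgeR 4.0.16 (TMM, filterByExpr, quasi-likelihood test) in R 4.3.3. A call was a fold change of at least 2 and a Benjamini-Hochberg adjusted p of at most 0.05 over 12412 genes. Genes in all 8 tables had 8 libraries in the fit, and those that the TAM-KO1 table lacks had 7. For the latter, the fit without TAM-KO1 gives the same fold change. Among them are Fcna, Colec12, Clec10a, C4b, Lyz2, Cd74, H2-Aa, Ly6c2, Csf3r, Gzmb and Dct. The script was tested on simulated data. Alternatives were DESeq2 1.42.0 (tool and size factors), limma 3.58.1 on log2 of FPKM with 1 or 0.1 added, dropping the filter, asking for 10 counts or more in every library, no fold minimum, the replicate number as a block, TAM-KO1 filled in, and each library left out. The 10 genes and every list (perivascular-type, partner, MHC class II-high and cell type markers) were chosen with earlier results of these data known. Named were the 10 genes, Colec11, every called gene and the 2 most abundant genes of each list, and the 5 genes nearest in profile among those with a mean of at least 5 CPM (Treml1, with too few counts to test, is not described further). The values of 1 called gene are not reported here. Any other gene named was chosen after its values were seen. Promoter motifs were exact letter matches, and the E-box was shortened, after the values were seen, from a longer form that had no match in these windows either.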

Additional observations from a re-analysis of the deposited data

Results flagged for a closer look

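Among 95 groups of 4 libraries of named genes, 5 had 1 library far from the other 3 by Dixon's criterion on the gap over the range, where chance gives about 4.8. None was of the 10 genes. TAM-WT1 stood above the other TAM-WT libraries for C4b (19.43 FPKM), Gzmb (6.55 FPKM) and Nkg7 (5.82 FPKM). TAM-WT2 stood above them for Cd44 (167.26 FPKM), and TAM-KO1 stood above the other TAM-KO libraries for S100a8 (73.46 FPKM).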

How the results depend on the processing

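Over all genes, 139 were called lower and 175 higher. Limma on log2(FPKM + 1) called 60 lower, a minimum of 10 counts in every library left 100 higher, and the adjusted p with no fold minimum gave 650 lower and 568 higher. Leaving out 1 library gave 16 to 208 lower and 12 to 315 higher. Of the 10 genes, 7 were called lower, 6 with at least 10 counts required in every library, and 1 to 8 without 1 library. Their log2 fold changes kept their sign in every alternative: 155 of 159 values moved by less than the spread between libraries, and the other 4 were Lyve1, Gas6 and Slco2b1 without TAM-KO4 (-5.82, -2.37 and -3.48) and Cd163 with limma on log2(FPKM + 1) (-1.63). The cause was not tested. For 7 of the 10 genes TAM-KO1 was not in the main fit, so their values without TAM-KO1 repeat it and were fixed in advance.

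Of the other perivascular-type genes, 8 were called lower, 13 with no fold minimum and 0 to 9 without 1 library, and 1 was called higher, 0 to 1 without 1 library. Of the partner genes, 0 were called lower, 2 with no fold minimum and 0 to 1 without 1 library, and 0 higher, against 1 (Hp) with limma on log2(FPKM + 0.1) and 1 with TAM-KO1 filled in. Of the MHC class II-high genes 0 were called higher, and 0 to 1 without 1 library. The median log2 fold change over all genes moved from 0.002 to 0.106 with limma on log2(FPKM + 0.1).

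The replicate numbers gave no evidence of pairing: the deviations of same-numbered TAM-WT and TAM-KO libraries had correlations of -0.325, 0.02, -0.234 and 0.261 over 9396 genes. With the replicate number as a block, 153 genes were lower and 161 higher, and 1 MHC class II-high gene (Cx3cr1) was called higher. Among the tested genes named, depth limits Lyve1, Vsig4 and Retnla in TAM-KO, at under 10 counts in at least 1 library. In TAM-WT it limits Nkg7, Gzmb, Cd3e, Cd3d, Cd8a, S100a8, Xcr1 and Flt4 in the same way.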

Other observations

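The CD209 lectin genes Cd209f, Cd209g, Cd209d and Cd209b, with Timd4 and Pla2g2d, had too few counts for the fit over all libraries. Cd209f, a lectin of resident macrophages, had 36.84, 61.58, 11.79 and 6.11 expected counts in TAM-WT and 0, 1, 0 and 2 in TAM-KO, with no overlap. In fits without 1 library it passed the filter in 5, only through its TAM-WT counts, and was called lower in 3. Cd209g had 5.16, 11.42, 1.21 and 3.89 counts in TAM-WT and 1, 0, 0 and 0 in TAM-KO. The fractions arise because reads were split between near-identical genes, so the division between the pair is uncertain. Cd209d (3 to 10 counts in TAM-WT, 0 to 4 in TAM-KO) and Timd4 (1 to 7 and 1 to 5 counts) overlapped between the groups. Pla2g2d, a secreted phospholipase, had 9, 17, 8 and 7 counts in TAM-WT and 6, 1, 1 and 0 in TAM-KO.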
